A study of Mus musculus with 16 samples.

Results

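The comparison described here set mouse embryonic stem cells with 24 h of c-Raf stimulation under FGF receptor inhibition (group 24h) against the same line kept in vehicle (group DMSO). Each group had 2 arrays, numbered replicate 1 and 2, so the comparison used 4 of the 16 arrays of the time course. The line was E14tg2a, an established line of mouse embryonic stem cells, and all groups carried a fusion protein of c-Raf that is constantly active once tamoxifen or its active form has induced it. All cells were grown with serum and the cytokine LIF on gelatin, with no feeder layer named. Cells of group 24h received 250 nM PD173074, an FGF receptor inhibitor, for 24 h and then 250 nM 4-hydroxytamoxifen (4OHT), which activates the fusion, for a further 24 h with the inhibitor present. Per the series' design text, cells of group DMSO received neither, so the inhibitor, 4OHT and the activity of the fusion cannot be told apart in this difference. The group 0h, which had the inhibitor and no 4OHT, and the group 8h, which had 4OHT for 8 h, are given beside it where they bear on a gene. Whether the line is 1 clone, and whether the replicates were separate cultures, is not stated in the labels, and the p-values therefore reflect only how far these arrays differ, which may be technical.

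Embryonic stem cells correspond to the epiblast of the early embryo. In them FGF4 binds FGF receptors and, through RAS, RAF and MEK, activates the kinase ERK, which moves cells away from the naive state; LIF, through STAT3, holds them in it. ERK activity is followed within minutes by immediate early genes such as Egr1 and Fos, and then by inhibitors of the same pathway, among them Dusp phosphatases, which remove phosphate from ERK, and Sprouty and Spred proteins, which act upstream of it. An active c-Raf enters this chain below the receptor that PD173074 blocks.

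Signals are log2 intensity minus the 75th percentile of the array, so 0 is the level of a gene at that percentile. Levels are given for replicates 1 and 2 in that order, and differences are 24h minus DMSO on the log2 scale, fitted with the replicate number as a pair, with the standard error (SE). Array identity followed the column headings of the deposited value table: every scanner file matched 1 column at 100% of its spots, and for 8 of the 16 arrays that column was headed with another sample than the one the file is attached to. By the headings each slide held 1 replicate number of all 8 groups, so slide and replicate number cannot be told apart. The share of spots well above background was 54.9% to 60% on the slide of replicate 1 and 61.5% to 67.2% on that of replicate 2, no spot was saturated, and the 2 arrays of a group correlated at 0.982 to 0.990 across genes.

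Of the embryonic stem cell markers, Pou5f1 and Sox2 were read on all 4 arrays with little difference between groups. Nanog (-3.29), Esrrb (-1.69), Zfp42 (-1.11) and Sall4 (-0.46) were called lower at 24h (log2 differences), and Utf1 was not called. Pou5f1, a transcription factor that all pluripotent cells need, measured 6.07 and 5.99 in DMSO and 6.30 and 6.23 at 24h. Sox2, its binding partner, measured 3.57 and 3.80 in DMSO and 3.78 and 3.80 at 24h. The groups differed by 0.23 ± 0.24 for Pou5f1 (95% confidence interval -0.31 to 0.78; adjusted p = 0.517) and by 0.10 ± 0.12 for Sox2 (-0.17 to 0.37; adjusted p = 0.57), and neither was called.

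Of 15660 genes tested, 4067 (26%) were called at an adjusted p under 0.05 by limma with Benjamini-Hochberg adjustment over all genes: 1964 (12.5%) were higher at 24h and 2103 (13.4%) lower. Changes of 4-fold or more were found for 317 called genes higher and 119 lower, and of 8-fold or more for 117 higher and 25 lower. Both replicates gave the same sign for 4066 of the called genes, and 1 lacked a value on an array. A call on the mean of the 2 differences leaves little room for opposite signs. The difference was larger in replicate 1 than in replicate 2 for 86.2% of the called genes, and the median size of a called difference was 0.97 in replicate 1 and 0.61 in replicate 2. Without the replicate number as a pair, 1778 genes (11.4%) were called, 1027 (6.56%) higher and 751 (4.8%) lower, all of them among the 4067. Leaving out 1 array gave 1644 calls when 24h replicate 1 was dropped, 3954 without 24h replicate 2, 1454 without DMSO replicate 1 and 3182 without DMSO replicate 2. A fit on these 4 arrays alone, with 1 residual degree of freedom, called 0 genes (limma, Benjamini-Hochberg), with 3916 at an unadjusted p under 0.05, so the calls rest on the spread shared with the other 12 arrays. That spread was uneven. The difference between replicates lay over 1 log2 unit from its median over groups for 4.69% of genes at 24h, the most of any group. The share was 2.67% in DMSO and 1.21% at 1h, so the shared spread may be too small for this comparison. With samples taken from the file attachment in place of the column headings and no pairing, against the 1778 above, 252 genes were called, 237 of them higher, and 9 were shared with the 4067. For the side comparisons quoted with single genes, the same fit called 14.9% of genes for 0h against DMSO, 18.1% for 8h against DMSO, 39.5% for 24h against 0h and 22.9% for 24h against 8h.

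**Figure D1:**
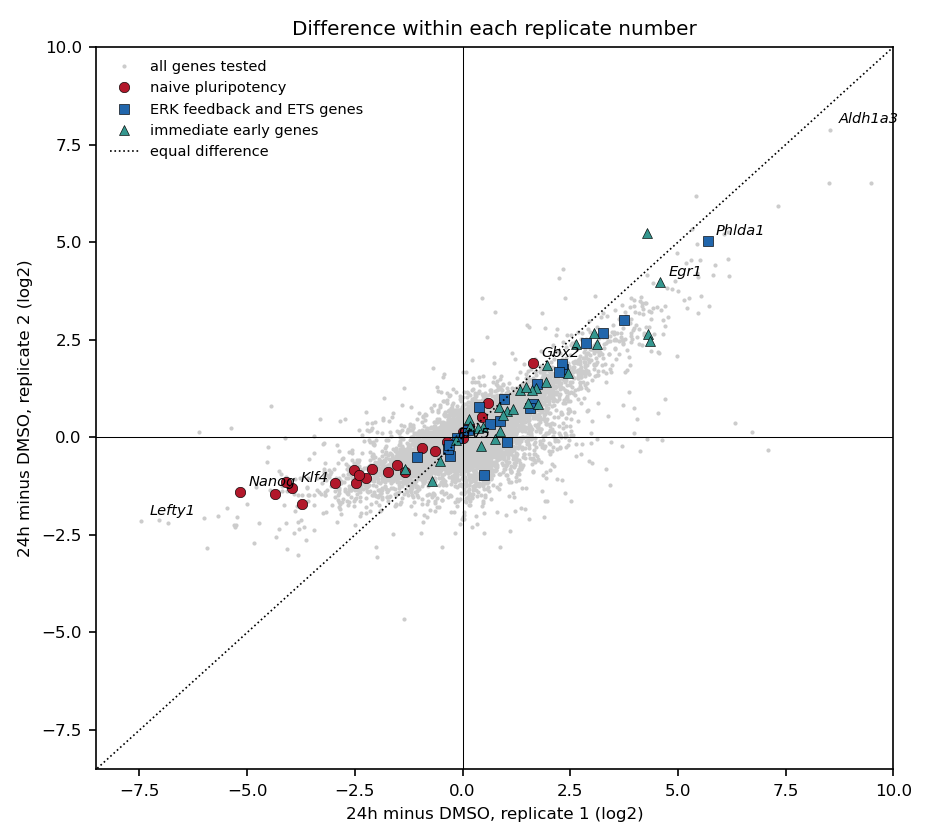
Difference between 24h and DMSO in replicate 1 (x axis, log2) and replicate 2 (y axis, log2) for every gene tested; grey points are all genes, coloured points the members of 3 gene lists, and the dotted line marks equal differences. Most called genes lie between the x axis and the dotted line, since 86.2% of them differed more in replicate 1; Nanog lies at -5.17 and -1.40.

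Several inhibitors that ERK induces against its own pathway were higher at 24h than in vehicle, with the FGF receptor inhibitor present, and others were not called. Among ERK feedback and ETS genes, 11 of 22 genes tested were called higher and 0 lower, with a median difference of 0.80 (0.99 in replicate 1 and 0.76 in replicate 2). The median over all genes tested was -0.03, and 12.5% and 13.4% of all genes were called in the 2 directions. Every list count below is to be read beside these shares. The counts were 8 higher and 0 lower without the pairing, and 12 higher and 1 lower without DMSO replicate 2. Dusp6, the phosphatase most specific for ERK, measured 3.98 and 3.84 in DMSO and 6.28 and 5.73 at 24h. Both 24h arrays lay above both DMSO arrays, a difference of 2.10 ± 0.24 or 4.27-fold (adjusted p = 0.000536). Dusp4, a nuclear phosphatase of ERK and stress kinases, measured 0.87 and 0.47 in DMSO and 4.12 and 3.14 at 24h, which was 7.79-fold higher (adjusted p = 8.27e-05). Dusp2, another nuclear phosphatase, measured -1.0 and -1.06 in DMSO and 2.74 and 1.94 at 24h (10.3-fold higher). In all 3 the groups were farther apart than the replicates. Dusp5 rose 6.24-fold, from -3.50 and -3.82 to -0.64 and -1.40, and Dusp1, which acts on stress kinases as well as ERK, rose 4.14-fold, from 1.68 and 1.31 to 4.02 and 3.07.

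Among the upstream inhibitors, Spry4 measured 0.26 and 1.06 in DMSO and 1.98 and 2.43 at 24h, a rise of 2.92-fold (adjusted p = 0.0128). Spry2 rose 1.95-fold and Spred1 2.37-fold. Spry1 measured 2.65 and 2.62 in DMSO and 3.53 and 3.03 at 24h, with both 24h arrays above DMSO, and missed the threshold at 0.64 ± 0.22 (adjusted p = 0.0561). Of the other inhibitors, Spred2 (-0.07), Spred3 (0.57), Il17rd (-0.40), Dusp7 (-0.31), Dusp10 (-0.78) and Errfi1 (0.46) were not called either; the values are log2 differences. The ETS factors, transcription factors downstream of ERK, were split: Etv4 and Elk3 were called, and Etv1, Etv5, Ets1 and Ets2 were not. Etv4 measured 4.92 and 4.67 in DMSO and 7.17 and 6.34 at 24h and was 3.9-fold higher (adjusted p = 0.00162). Etv5, its close relative, measured 6.99 and 6.68 in DMSO and 6.67 and 6.49 at 24h, a difference of -0.26 ± 0.12 (95% confidence interval -0.53 to 0.02; adjusted p = 0.156). Elk3, a partner of the serum response factor, rose 2.22-fold; other probes of it differed by 0.16 ± 0.19 (adjusted p = 0.572) and 1.17 ± 0.31 (adjusted p = 0.0239). The largest change of the list was that of Phlda1, a pleckstrin homology domain gene, at 0.04 and -0.25 in DMSO and 5.74 and 4.77 at 24h; it was 41-fold higher (adjusted p = 5.71e-05), and the groups were separated by more than 4 log2 units on every array. Of the genes named in the list, the call was lost without the pairing for Spry2, Spred1 and Etv4, without 24h replicate 1 or without DMSO replicate 2 for Elk3, without 24h replicate 2 for Spry4, and without DMSO replicate 1 for Spry4 and Elk3. The kinases and adaptors of the cascade itself moved little: 3 of 17 genes tested were called higher and 1 lower, with a median difference of 0.12 (0.11 in replicate 1 and -0.01 in replicate 2, against -0.02 with normexp and -0.05 leaving out DMSO replicate 1), and 1 and 0 were called without the pairing and at the fewest 1 and 0 with 1 array left out. For lists given in this form, the fewest calls in each direction came without 24h replicate 1 or DMSO replicate 1, alone or tied with another array. A list's median under another array scaling, another background correction (normexp), without the pairing or without 1 array stands after "against" where it moved by more than 0.1 and by over 1.5 times, and counts under another scaling or normexp stand in parentheses where they moved by 2 or more and by over 1.5 times. The cascade genes called were Sos2, a RAS activator (2.56-fold higher), Shc1 (1.53-fold higher), Braf (1.46-fold higher; another probe, at 0.54 ± 0.26 (adjusted p = 0.159), was not called) and Rasa1, which switches RAS off (1.28-fold lower). For these the call was lost without the pairing or without 24h replicate 1 or without DMSO replicate 1 for Shc1, Braf and Rasa1, and without DMSO replicate 2 for Rasa1. Map2k2, a MEK gene, differed by 3.45 in replicate 1 and -0.12 in replicate 2 (1.66 ± 0.78) and was not called. Ksr1 (0.65 ± 0.54) and Mapk3 (-0.33 ± 0.12) were not called either.

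Many immediate early genes were higher than in vehicle after 24 h of stimulation. Of 32 listed, 19 of 31 genes tested were called higher and 1 lower, with a median difference of 1.21 (1.34 in replicate 1 and 0.86 in replicate 2). The counts were 15 higher and 1 lower without the pairing. Egr1, a zinc finger factor and a standard ERK target, measured 0.51 and 0.45 in DMSO and 5.08 and 4.43 at 24h. That was 19.4-fold higher (adjusted p = 7.73e-05); at 8h it had stood at 6.01 and 4.58, and 24h minus 8h was -0.54 ± 0.28 (adjusted p = 0.206). Fos, a subunit of the AP-1 factor, measured -2.92 and -2.71 in DMSO and 0.21 and -0.31 at 24h, 6.78-fold higher (adjusted p = 0.000594), and its relative Fosl1 measured -3.40 and -2.85 in DMSO and 0.89 and -0.22 at 24h, 11-fold higher (adjusted p = 0.00364). In each of the 3 genes the lower 24h array was more than 2 log2 units above the higher DMSO array. Egr2 was not well above background on the DMSO arrays and was at least 10.8-fold higher at 24h, where a bound sets the mean of the bright group against the lowest signal well above background. The AP-1 subunits Jun and Junb were 2.8-fold and 3.73-fold higher. Zfp36, which speeds decay of short-lived mRNAs, rose 5.69-fold, and Zfp36l2 2.48-fold. Arc, best known from neurons, rose 7.26-fold, Ier3 2.67-fold and Myc 2.6-fold. Srf, the serum response factor that drives many of these genes, measured 1.47 and 1.52 in DMSO and 2.40 and 2.09 at 24h and was 1.69-fold higher (adjusted p = 0.0035). Ccn2, a secreted matrix protein, was the member called lower, by 2.09-fold. Ier2 (0.30 ± 0.18) was not called, and Egr3 was not well above background in either group. Of the genes named, the call was lost without the pairing for Myc, without 24h replicate 1 for Jun, and without DMSO replicate 1 for Jun and Myc.

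Serum response factor binds the CArG box, and RefSeq promoter sequence (assembly GRCm38.p6) was searched for it by name on both strands in the 250 bases before each gene start. The box was found in 1.47% of all 32851 promoters and 1.62% of 27025 genes, in 3 of the 13 called immediate early genes with a promoter entry, and in Dusp5 and Fhl2 among the other genes looked up. Looked up were the largest rises and falls, immediate early and ERK feedback genes called higher, and naive pluripotency genes called lower. Other genes described here were not looked up. The 5 promoters are shown because they belong to genes called higher at 24h; each is the gene strand, 5′ to 3′, ending at the base before the start, with the CArG box in capitals.
Egr2, chr10:67537316-67537565, plus strand, box 72 bases before the start: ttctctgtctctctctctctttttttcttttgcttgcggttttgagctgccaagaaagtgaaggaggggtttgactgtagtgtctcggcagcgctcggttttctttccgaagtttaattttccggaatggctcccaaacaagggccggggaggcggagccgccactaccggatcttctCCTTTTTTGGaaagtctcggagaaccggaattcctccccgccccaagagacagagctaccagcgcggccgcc
Zfp36, chr7:28379229-28379478, minus strand, box 58 bases before the start: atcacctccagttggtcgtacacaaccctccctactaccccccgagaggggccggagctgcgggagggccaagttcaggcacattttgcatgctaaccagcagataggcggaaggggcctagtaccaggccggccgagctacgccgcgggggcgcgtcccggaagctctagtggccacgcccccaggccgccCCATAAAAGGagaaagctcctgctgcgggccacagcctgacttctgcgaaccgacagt
Srf, chr17:46556163-46556412, minus strand, boxes 82 and 62 bases before the start: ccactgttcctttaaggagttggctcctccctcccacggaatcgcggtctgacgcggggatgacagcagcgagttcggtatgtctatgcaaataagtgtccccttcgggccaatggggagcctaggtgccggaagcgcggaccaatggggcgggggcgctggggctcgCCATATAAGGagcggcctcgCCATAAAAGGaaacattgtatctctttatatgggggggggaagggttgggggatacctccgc
Dusp5, chr19:53528895-53529144, plus strand, boxes 82 and 72 bases before the start: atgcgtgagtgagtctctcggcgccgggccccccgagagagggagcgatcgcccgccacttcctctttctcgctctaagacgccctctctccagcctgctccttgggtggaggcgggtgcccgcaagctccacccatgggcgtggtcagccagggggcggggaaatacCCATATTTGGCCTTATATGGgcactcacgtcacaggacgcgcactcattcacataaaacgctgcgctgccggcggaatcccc
Fhl2, chr1:43196762-43197011, minus strand, box 96 bases before the start: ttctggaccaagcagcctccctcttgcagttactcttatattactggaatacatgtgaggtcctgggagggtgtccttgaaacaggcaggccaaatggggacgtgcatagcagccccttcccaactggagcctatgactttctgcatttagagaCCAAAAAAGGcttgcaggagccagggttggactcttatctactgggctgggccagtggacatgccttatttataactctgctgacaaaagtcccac
Egr2 and Fhl2 have other annotated starts, and 1 of those is shown for each. A match is only a match of letters; binding was not measured. The AP-1 motif TGACTCA, on either strand, was in 4.46% of promoters and, among the genes of this search, in Csrnp1, an immediate early gene that rose 3.21-fold (the call was lost without 24h replicate 1 or without DMSO replicate 1); the CRE motif TGACGTCA was in 1.55% of promoters and in Dusp1. Of the called naive pluripotency genes, 9 of 15 had a promoter entry and none held any of the 3 motifs.

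Several of these genes were below vehicle on the 0h arrays, under the inhibitor alone. Both differences use the same DMSO arrays, so values are set side by side. Spry4 stood at -2.50 and -2.97 at 0h, against 0.26 and 1.06 in DMSO and 1.98 and 2.43 at 24h. Etv4 stood at 2.55 and 1.03 at 0h, 4.92 and 4.67 in DMSO and 7.17 and 6.34 at 24h, and Dusp6 at 2.65 and 1.43, 3.98 and 3.84 and 6.28 and 5.73. In each the 24h arrays passed the vehicle level from below. Gbx2, a homeobox gene of the naive state, stood at -0.60 and -1.87 at 0h, 2.07 and 1.09 in DMSO and 3.70 and 3.0 at 24h, so it was 3.41-fold above vehicle (adjusted p = 0.00049). Of the 10 genes lowest and 10 highest at 0h against DMSO, chosen after their values were seen, some were close to vehicle at 24h and others were not. Wt1, a zinc finger factor, stood at -2.26 and -2.68 at 0h but at 1.01 and 0.74 in DMSO and 1.04 and 0.66 at 24h, a difference of -0.02 ± 0.19 from vehicle (adjusted p = 0.935). Hesx1, a homeobox gene, stood at -0.11 and 1.16 at 0h, -3.97 and -2.90 in DMSO and -3.55 and -3.05 at 24h, 0.13 ± 0.31 from vehicle (adjusted p = 0.783). Calcoco2, an autophagy receptor, stood at 3.12 and 4.61 at 0h and differed from vehicle by -0.39 ± 0.38 at 24h (adjusted p = 0.486). Vrtn was lower than vehicle at 24h, by -1.76 ± 0.54 (adjusted p = 0.0397), and its call was lost without the pairing and without any array but 24h replicate 2. Nlrc4, an inflammasome gene, was below vehicle at 0h and 2.30 ± 0.18 above it at 24h (adjusted p = 0.00014), and its call was lost without the pairing. A missed threshold does not show that vehicle level was regained.

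**Figure D2:**
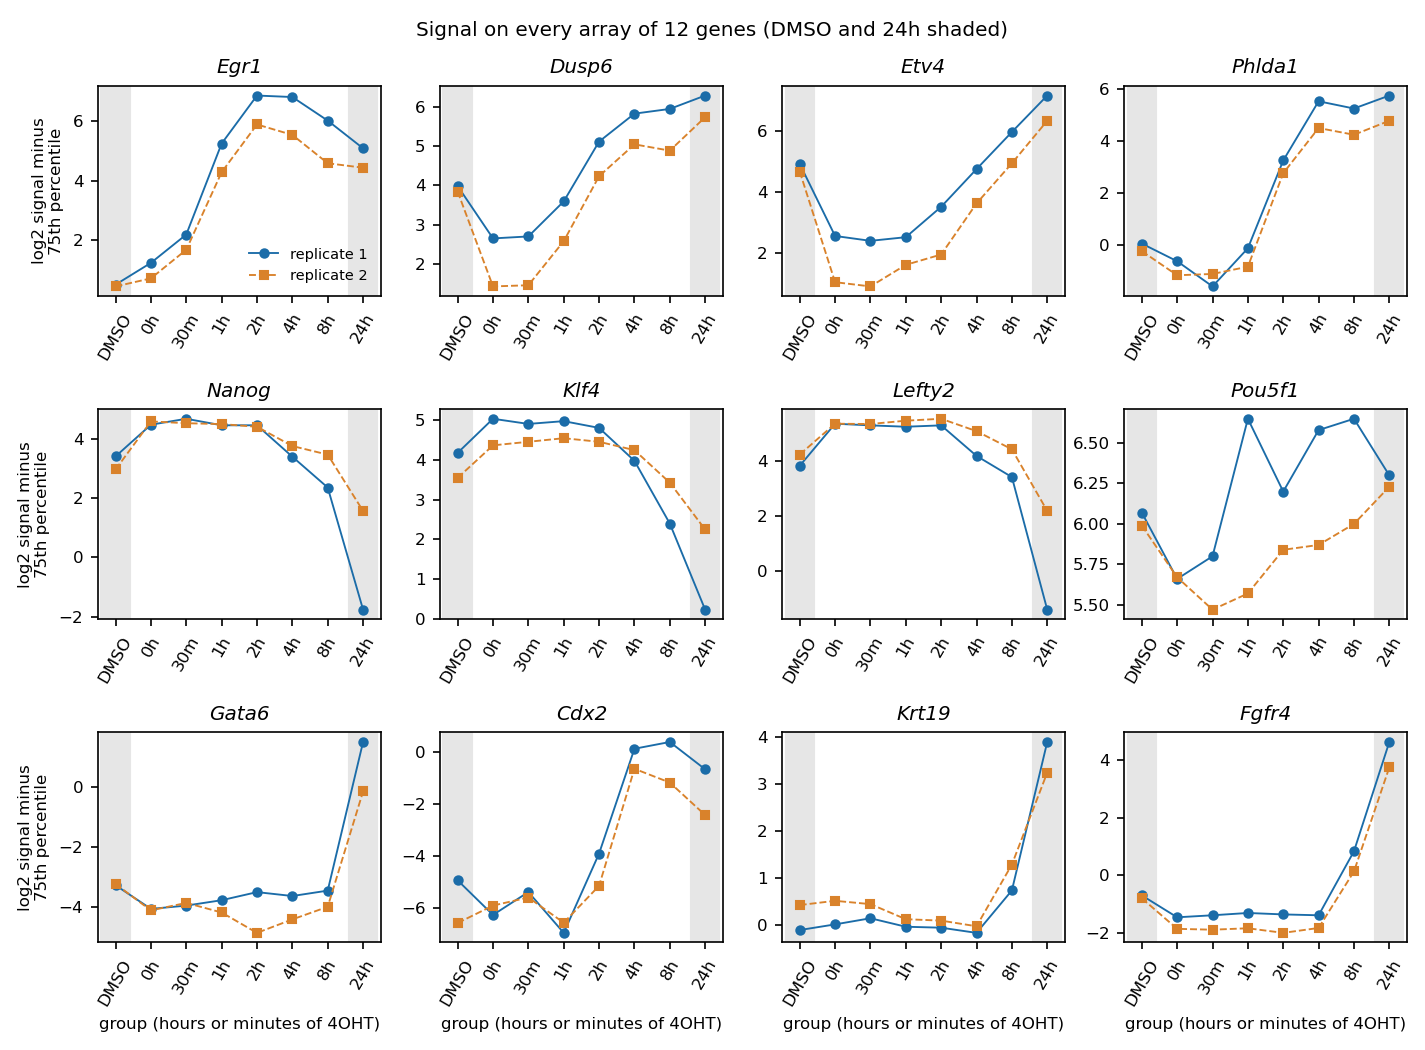
Signal (log2 minus the 75th percentile, y axis) of 12 genes on all 16 arrays, by group on the x axis, with replicate 1 as blue circles and replicate 2 as orange squares; DMSO and 24h are shaded and each panel has its own y scale. Dusp6 and Etv4 are lower at 0h than in DMSO and higher than DMSO at 24h, whereas Nanog, Klf4 and Lefty2 are lowest on the 24h array of replicate 1, at -1.76, 0.23 and -1.39.

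Most genes of the naive state were lower at 24h than in vehicle, and more so in replicate 1. In the naive pluripotency list, 2 of 23 genes tested were called higher and 15 lower, with a median difference of -1.30 (-1.72 in replicate 1 and -0.85 in replicate 2). The counts were 0 higher and 10 lower without the pairing, and 1 higher and 16 lower without 24h replicate 2 and 1 higher and 4 lower without DMSO replicate 1. Nanog, the homeobox factor whose level marks the naive state, measured 3.41 and 2.97 in DMSO and -1.76 and 1.57 at 24h. Its 24h arrays were both below DMSO but more than 3 log2 units apart, and the fitted fall was -3.29 ± 0.75 or 9.75-fold (adjusted p = 0.0124). Another Nanog probe fell less, by -0.61 ± 0.18 (adjusted p = 0.0378). Klf4, a factor induced by LIF and STAT3, measured 4.18 and 3.55 in DMSO and 0.23 and 2.25 at 24h, a fall of 6.17-fold (adjusted p = 0.0121). Prdm14, which represses FGF receptor signalling in these cells, measured 1.74 and 1.72 in DMSO and -2.62 and 0.28 at 24h, 7.46-fold lower. Tcl1, a coactivator of AKT, measured 4.82 and 4.64 in DMSO and 0.71 and 3.50 at 24h, 6.17-fold lower. In each of them the 24h array of replicate 1 was far lower than that of replicate 2, and both lay below DMSO. Esrrb, a nuclear receptor, fell 3.22-fold, from 7.13 and 6.91 to 4.61 and 6.06, and Tfcp2l1 fell 2.74-fold, from 3.73 and 4.39 to 1.62 and 3.58. Klf2 measured 6.12 and 6.18 in DMSO and 4.40 and 5.31 at 24h and fell 2.46-fold (adjusted p = 0.00474), with a smaller gap between its arrays. Zfp42, also called Rex1, fell 2.16-fold, Tbx3 3.12-fold, Dppa3 3.55-fold and Fbxo15 4.2-fold. Fgf4, the ligand of the pathway, fell 3.23-fold, from 6.49 and 6.13 to 4.08 and 5.15. Klf5 and Gbx2 were the members called higher, by 1.67-fold and 3.41-fold. Of these genes, the call was lost without the pairing for Prdm14, Tfcp2l1, Zfp42, Klf5 and Gbx2, without 24h replicate 1 for Klf4, Prdm14, Tbx3 and Fgf4, without 24h replicate 2 for Klf5, without DMSO replicate 1 for Nanog, Klf4, Prdm14, Tcl1, Esrrb, Tfcp2l1, Zfp42, Tbx3, Fbxo15, Fgf4 and Klf5, and without DMSO replicate 2 for Zfp42. RNA was measured in bulk, so fewer cells with a gene on and less of its RNA per cell cannot be told apart.

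Genes shared by all pluripotent cells had a median nearer 0. In the general list, 1 of 16 genes tested was called higher and 7 lower, with a median difference of -0.14 (-0.10 in replicate 1 and -0.20 in replicate 2, against -0.27 leaving out DMSO replicate 1). The counts were 1 higher and 4 lower without the pairing, and 1 higher and 2 lower without 24h replicate 1, 1 higher and 2 lower without DMSO replicate 1 and 1 higher and 4 lower without DMSO replicate 2. Foxd3, a forkhead repressor, measured 1.89 and 1.55 in DMSO and -0.11 and 0.59 at 24h, 2.79-fold lower (adjusted p = 0.00491). Trim28, a corepressor that silences retroelements, measured 7.53 and 6.94 in DMSO and 6.05 and 6.23 at 24h, 2.13-fold lower (adjusted p = 0.00223). Both calls were kept without the pairing and in each fit that left out 1 array. Utf1, at 6.97 and 6.63 in DMSO and 7.08 and 6.82 at 24h, differed by 0.15 ± 0.20 (95% confidence interval -0.31 to 0.60). Sall4 fell 1.37-fold and Lin28a, an RNA-binding protein, 1.46-fold, and other Sall4 probes, at -0.35 ± 0.15 (adjusted p = 0.116) and -0.61 ± 0.25 (adjusted p = 0.0963), were not called; for them the call was lost without the pairing or without 24h replicate 1 or without DMSO replicate 1 for Sall4 and Lin28a, and without DMSO replicate 2 for Lin28a.

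Genes of the next, formative stage were called in both directions, where 12.5% of all genes were called higher and 13.4% lower. Of that list, 3 of 16 genes tested were called higher and 4 lower (5 and 5 with normexp), with a median difference of -0.51 (-0.48 in replicate 1 and -0.52 in replicate 2, against -0.78 leaving out DMSO replicate 1, -0.27 leaving out 24h replicate 1 and -0.17 leaving out DMSO replicate 2). The counts were 1 higher and 4 lower without the pairing, and 1 higher and 3 lower without 24h replicate 1 and 0 higher and 1 lower without DMSO replicate 1. Otx2, a homeobox factor of that stage, measured 4.89 and 4.67 in DMSO and 4.45 and 4.15 at 24h, with the 24h arrays below DMSO (-0.48 ± 0.16; 95% confidence interval -0.85 to -0.11; adjusted p = 0.0596). Fgf5, the classic marker, measured -2.64 and -3.48 in DMSO and -3.69 and -4.36 at 24h (-0.96 ± 0.33; adjusted p = 0.0568), and Dnmt3b, a DNA methyltransferase, 6.60 and 6.80 in DMSO and 6.12 and 6.18 at 24h (-0.55 ± 0.27; adjusted p = 0.162). None of the 3 was called. Fgf5 was at -2.04 and -2.33 at 8h, and the difference 24h minus 8h was -1.84 ± 0.33 (adjusted p = 0.00434). Sall2, a zinc finger factor, measured -0.30 and -0.38 in DMSO and -3.53 and -2.32 at 24h and fell 5.99-fold (adjusted p = 0.000969). Sox4 rose 2.11-fold and Tcf15 1.73-fold. Zic2 and Zic5 were called lower, at 0.22 and -1.45 in DMSO and -5.71 and -4.27 at 24h and at -1.06 and -1.24 in DMSO and -6.37 and -3.47 at 24h, and each was well above background on only 1 of the 2 24h arrays. Of these, the call was lost without the pairing for Sox4 and Tcf15, without 24h replicate 1 for Sox4 and Zic2, and without DMSO replicate 1 for Sox4, Tcf15, Zic2 and Zic5.

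Targets and inhibitors of Nodal, a TGF-beta ligand of the epiblast, included the largest fall among genes measured on all 4 arrays, that of Lefty1. In the Nodal list, 2 of 15 genes tested were called higher and 6 lower, with a median difference of -0.44 (-0.64 in replicate 1 and -0.28 in replicate 2). The counts were 2 higher and 4 lower without the pairing, and 1 higher and 2 lower without 24h replicate 1 and 1 higher and 1 lower without DMSO replicate 1. Lefty1, a secreted Nodal inhibitor and itself a Nodal target, measured 5.21 and 5.23 in DMSO and -2.25 and 3.08 at 24h. Lefty2, its neighbour in function, measured 3.84 and 4.25 in DMSO and -1.39 and 2.20 at 24h. The 24h arrays of the 2 replicates were far apart in both genes, and the fitted falls were -4.80 ± 1.18 for Lefty1 (adjusted p = 0.0172) and -3.64 ± 0.73 for Lefty2 (adjusted p = 0.00714). Nodal itself measured 4.44 and 4.21 in DMSO and 3.64 and 3.93 at 24h (-0.54 ± 0.22; adjusted p = 0.102) and was not called. Furin, a protease that matures such ligands, measured -1.82 and -1.27 in DMSO and 0.98 and 0.42 at 24h and rose 4.74-fold (adjusted p = 0.000422). For them the call was lost without 24h replicate 1 for Lefty1, and without DMSO replicate 1 for Lefty1 and Lefty2.

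Among receptors and ligands of the FGF family, 2 of 16 genes tested were called higher and 6 lower, beside 12.5% and 13.4% of all genes. Higher calls were thus no more frequent than over all genes. The median difference was -0.64 (-0.63 in replicate 1 and -0.52 in replicate 2, against -0.37 with normexp). The counts were 1 higher and 3 lower without the pairing, and 1 higher and 1 lower without 24h replicate 1 and 1 higher and 2 lower without DMSO replicate 1. Fgfr4 measured -0.70 and -0.80 in DMSO and 4.62 and 3.74 at 24h, and its rise of 30.5-fold had the smallest SE of the 15 largest rises (adjusted p = 1.48e-06). Another Fgfr4 probe differed by 3.33 ± 0.56 (adjusted p = 0.0041). The first probe had stood at -1.46 and -1.86 at 0h and 0.83 and 0.13 at 8h, so 24h was above 8h by 3.70 ± 0.16 (adjusted p = 5.2e-06). Fgfr1, the main receptor of these cells, measured 3.43 and 3.35 in DMSO and 3.27 and 3.06 at 24h (-0.22 ± 0.22; 95% confidence interval -0.72 to 0.27), and Fgfr2 fell 1.46-fold; another Fgfr2 probe differed by -1.63 ± 0.33 (adjusted p = 0.00852). Among ligands Fgf15 fell 4.07-fold and Fgf18 2.58-fold. Of these, the call was lost without the pairing for Fgfr2, without 24h replicate 1 for Fgf15 and Fgf18, and without DMSO replicate 1 for Fgf15.

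Several regulators of extraembryonic and mesodermal fates rose, while most tested genes of their lists were not called. In the primitive endoderm list, of 27 genes, 8 of 25 genes tested were called higher and 0 lower, with a median difference of 0.54 (0.94 in replicate 1 and 0.21 in replicate 2, against 0.10 with normexp and 0.36 leaving out DMSO replicate 1). The counts were 6 higher and 0 lower without the pairing, and 3 higher and 1 lower without 24h replicate 1, 9 higher and 1 lower without 24h replicate 2 and 4 higher and 0 lower without DMSO replicate 1, and the normexp background correction lowered the median to 0.10. Gata6, the factor that opposes Nanog in the inner cell mass, measured -3.29 and -3.25 in DMSO and 1.49 and -0.16 at 24h. It was 15.3-fold higher (adjusted p = 0.000382), with both 24h arrays more than 3 log2 units above DMSO. At 8h it was still at -3.47 and -4.01, 24h minus 8h being 4.40 ± 0.40 (adjusted p = 0.000255). Pdgfra, a receptor of primitive endoderm, was not well above background in DMSO and at least 2.27-fold higher. Col4a2, a basement membrane chain, rose 3.03-fold, and Sparc, a matrix protein, 1.71-fold. Other defining markers were not called: Gata4 measured -2.95 and -2.85 in DMSO and -2.65 and -2.48 at 24h (0.33 ± 0.53; adjusted p = 0.686) and Sox17 -4.42 and -4.04 in DMSO and -3.18 and -3.96 at 24h (0.66 ± 0.39; adjusted p = 0.238). Among them the call was lost without 24h replicate 1 or without DMSO replicate 1 for Sparc.

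In the trophectoderm list, which shares Cdx2 and Hand1 with that of the primitive streak, 5 of 11 genes tested were called higher and 0 lower, with a median difference of 0.81 (1.51 in replicate 1 and 0.11 in replicate 2, against 0.49 with normexp, 1.41 leaving out 24h replicate 2 and 0.21 leaving out 24h replicate 1). The counts were 4 higher and 0 lower without the pairing, and 6 higher and 1 lower without 24h replicate 2. Cdx2, a homeobox factor of trophectoderm and later of gut, measured -4.95 and -6.59 in DMSO and -0.68 and -2.44 at 24h, was not well above background in DMSO and was at least 10.3-fold higher (adjusted p = 0.00107). Hand1, a factor of trophoblast and mesoderm, measured -4.51 and -4.15 in DMSO and -0.27 and -0.71 at 24h, 14.3-fold higher (adjusted p = 0.000126). Tead4 measured -0.54 and -0.58 in DMSO and 1.73 and 0.65 at 24h, 3.37-fold higher. The groups did not overlap in any of the 3. With 2 arrays a group this also occurs in unchanged genes, and its share over all genes was not counted. Prl3d1, a hormone of trophoblast giant cells, measured -2.68 and -2.52 in DMSO and -2.43 and -2.72 at 24h and was not called. Tfap2a (-1.14), Gata2 (-0.36), Ascl2 (-0.22), Esx1 (0.23) and Tfap2c (0.81) were not called either (log2 differences). In the primitive streak list, 5 of 18 genes tested were called higher and 1 lower, with a median difference of 0.21 (0.34 in replicate 1 and 0.20 in replicate 2, against 0.07 with quantile normalization and -0.05 with normexp). The counts were 4 higher and 0 lower without the pairing, and 4 higher and 0 lower without 24h replicate 1, 5 higher and 2 lower without 24h replicate 2, 4 higher and 0 lower without DMSO replicate 1 and 5 higher and 0 lower without DMSO replicate 2. Mesp1, an early mesoderm factor, rose at least 4.04-fold from below background, and Cdx1 rose 3.57-fold, from -0.93 and -0.61 to 1.13 and 1.0. Other streak genes were not called, among them Eomes (0.17), Tbx6 (-0.04), Lhx1 (0.07), Kdr (-0.11), Mesp2 (0.68), Evx1 (0.79) and Fgf8 (-0.72). The probe of T, the defining streak gene, was not well above background in either group, so no fold is given, although it is among the 5 called higher. Of these, the call was lost without the pairing or without 24h replicate 1 or without DMSO replicate 1 or without DMSO replicate 2 for T. In the neural list, 1 of 12 genes tested was called higher and 5 lower, with a median difference of -0.48 (-0.68 in replicate 1 and -0.50 in replicate 2, against -0.31 with normexp and -0.81 leaving out 24h replicate 2), and 1 and 3 were called without the pairing and at the fewest 0 and 3 with 1 array left out. Nes, an intermediate filament, rose 2.36-fold, and Tubb3, a tubulin of neurons, fell 3.46-fold. For both, the call was lost without 24h replicate 1 or without DMSO replicate 1 or without DMSO replicate 2 for Nes.

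Keratins and cell junction genes rose at 24h. In the epithelial list, 11 of 20 genes tested were called higher and 1 lower, with a median difference of 0.52 (0.68 in replicate 1 and 0.32 in replicate 2). The counts were 7 higher and 0 lower without the pairing, and 7 higher and 0 lower without 24h replicate 1 and 7 higher and 0 lower without DMSO replicate 1. Krt18 and Krt8 form the first keratin filaments of the embryo. Krt18 measured 3.43 and 3.25 in DMSO and 6.68 and 5.87 at 24h, 7.64-fold higher (adjusted p = 0.000367). Krt8 measured 0.0 and -0.26 in DMSO and 2.42 and 1.54 at 24h, 4.32-fold higher (adjusted p = 0.000871). Krt19 measured -0.10 and 0.43 in DMSO and 3.89 and 3.24 at 24h, 10.6-fold higher (adjusted p = 0.000119). No 24h array overlapped a DMSO array for these keratins, a pattern whose share over all genes was not counted. Krt19 was at 0.74 and 1.29 at 8h, 24h minus 8h being 2.55 ± 0.25 (adjusted p = 0.000327). Krt7 rose 10.9-fold, the tight junction gene Cldn3 6.44-fold, the desmosome genes Perp 5.52-fold and Dsp 5.43-fold, and Cdh1, the epithelial cadherin, 1.3-fold. Jup, a junction plaque protein, fell 1.51-fold. Of these, the call was lost without the pairing or without 24h replicate 1 or without DMSO replicate 1 for Cdh1 and Jup, and without DMSO replicate 2 for Cdh1.

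Genes of the mesenchymal list were split: 6 of 16 genes tested were called higher and 5 lower, with a median difference of -0.29 (-0.25 in replicate 1 and -0.10 in replicate 2, against -0.06 leaving out 24h replicate 1 and -0.14 leaving out DMSO replicate 2), and 5 and 2 were called without the pairing and at the fewest 5 and 3 with 1 array left out. Higher were S100a6, a calcium-binding protein (3.68 and 3.85 in DMSO and 7.87 and 7.13 at 24h; 13.3-fold), Hmga2, a chromatin protein (12.5-fold), Twist1 (9.91-fold) and Cdh2, the neural cadherin (5.75-fold). Lower were Vim, the mesenchymal filament vimentin (3.68 and 3.94 in DMSO and 1.30 and 2.54 at 24h; 3.71-fold), and Fn1, fibronectin (2.1-fold). Snai1, a repressor of Cdh1, fell 1.65-fold. In the urokinase and metalloprotease list, 5 of 9 genes tested were called higher and 1 lower, with a median difference of 0.86 (1.46 in replicate 1 and 0.40 in replicate 2, against 0.18 with normexp and 0.42 leaving out DMSO replicate 1), and 3 and 1 were called without the pairing and at the fewest 3 and 0 with 1 array left out. Plaur, the urokinase receptor, measured 2.24 and 1.98 in DMSO and 5.40 and 4.53 at 24h, 7.24-fold higher (adjusted p = 0.000484); Mmp9, a matrix protease, was below background in DMSO and at least 19.7-fold higher; and Timp3, a protease inhibitor, rose 4.42-fold. Among integrins and cadherins, 7 of 16 genes tested were called higher and 2 lower, with a median difference of 0.19 (0.27 in replicate 1 and 0.20 in replicate 2), and 5 and 1 were called without the pairing and at the fewest 5 and 0 with 1 array left out. Itga7 rose 4.84-fold and Itgb3 2.86-fold. Among collagens and laminins, 7 of 18 genes tested were called higher and 1 lower, with a median difference of 0.27 (0.37 in replicate 1 and 0.13 in replicate 2, against 0.04 with normexp), and 6 and 0 were called without the pairing and at the fewest 4 and 0 with 1 array left out. Of these, the call was lost without the pairing or without 24h replicate 1 or without DMSO replicate 1 or without DMSO replicate 2 for Snai1.

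**Figure D3:**
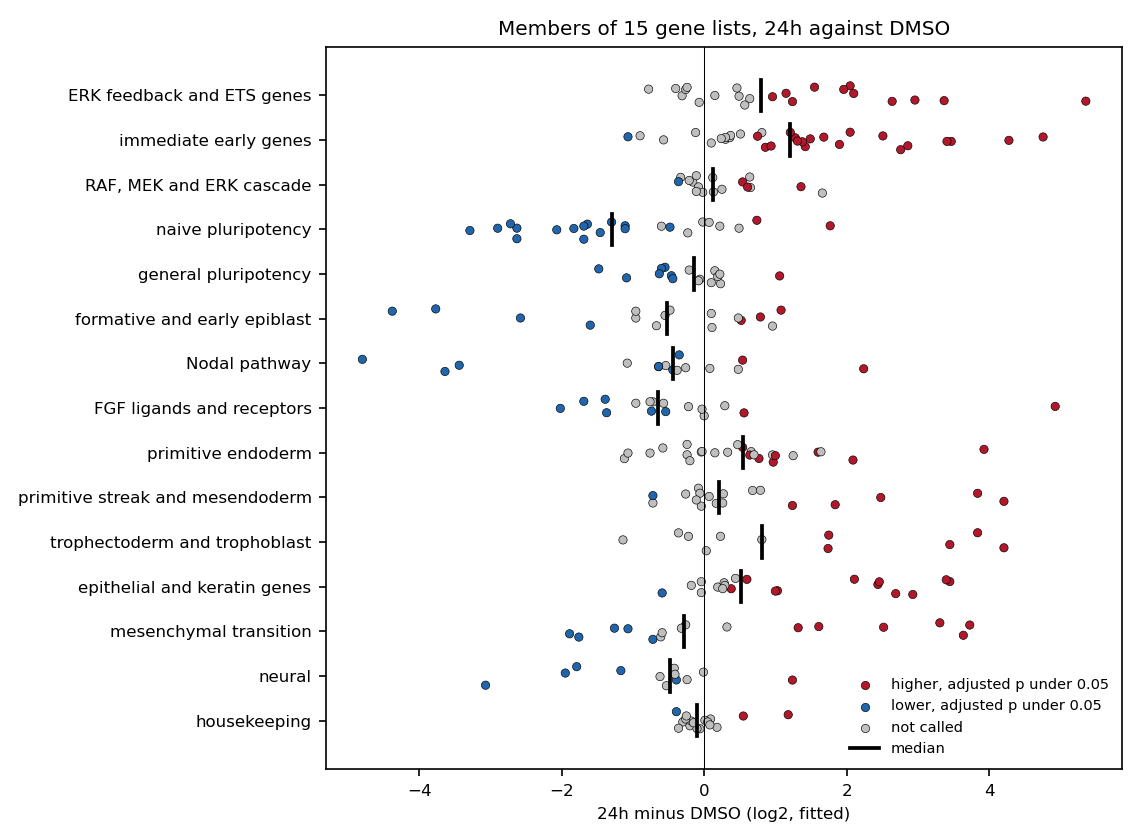
Fitted difference between 24h and DMSO (x axis, log2) of every tested member of 15 gene lists (rows); red points were called higher, blue lower and grey not called, and the black bar is the list's median. The median is -1.30 for naive pluripotency, 1.21 for immediate early genes and -0.10 for housekeeping genes.

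The genes with the largest rises had varied roles. Among genes well above background on all 4 arrays, the 15 largest rises lay between 20.1-fold and 50.1-fold. Grm6, a metabotropic glutamate receptor, measured -4.14 and -4.30 in DMSO and 1.93 and 0.92 at 24h. Ubash3b, a phosphatase of tyrosine kinase signalling, measured -3.54 and -4.10 in DMSO and 1.78 and 1.23 at 24h, and Fhl2, a LIM domain cofactor, -2.53 and -2.40 in DMSO and 2.98 and 2.14 at 24h. Every 24h array of these genes exceeded every DMSO array by more than 4 log2 units, but they were picked for the size of this difference. Edn2, an endothelin peptide, rose 31.7-fold (adjusted p = 0.00115), Vgf, a neuropeptide precursor, 28.5-fold (adjusted p = 0.000367), and Pla2g7, which breaks down platelet-activating factor, 27.6-fold (adjusted p = 0.000222). The integrin chains Itga8 and Itga3 rose 28.2-fold and 22.2-fold. Meis1, a homeobox cofactor of Hox proteins, rose 21.3-fold, Gsn, the actin-severing gelsolin, 20.8-fold, Nrp2, a receptor of semaphorins and VEGF, 20.2-fold, and Nos3, a nitric oxide synthase, 20.1-fold. Gm13889, a predicted gene, rose 41.3-fold; Phlda1 and Fgfr4 complete the 15. Some had reached this level by 8h and others had not: Nrp2 stood at 6.56 and 5.37 at 8h, 24h minus 8h being -0.06 ± 0.27 (adjusted p = 0.898), whereas Edn2 stood at -1.06 and -2.96 and rose further by 4.55 ± 0.66 (adjusted p = 0.0018).

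Genes not well above background in DMSO could rise further than any of these. Aldh1a3, which makes retinoic acid, measured -6.01 and -6.03 in DMSO and 2.52 and 1.85 at 24h and was at least 139-fold higher (adjusted p = 2.96e-05). Krt23, an acidic keratin, measured -6.84 and -6.09 in DMSO and 2.63 and 0.42 at 24h and was at least 87.7-fold higher, and Baalc measured -6.87 and -7.09 in DMSO and 1.63 and -0.57 at 24h and was at least 44-fold higher. All 24h arrays of the 3 genes were above every DMSO array, which their choice by the size of the bound makes near certain. The other bounds were at least 24.9-fold for Mal, a membrane raft protein, at least 20.6-fold for Shisa6, at least 14-fold for Bace2, an aspartic protease, and at least 13.4-fold for Plxnc1, a semaphorin receptor, besides Mmp9. Krt23 and Bace2 appeared late: at 8h Krt23 stood at -6.99 and -3.58 and Bace2 at -6.75 and -7.16, where 24h minus 8h was 6.81 ± 1.03 (adjusted p = 0.00209) for Krt23 and 5.83 ± 0.43 (adjusted p = 0.000121) for Bace2. For all 15 genes and these 8, no call was lost without the pairing or with 1 array left out.

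The 15 largest falls lay between 6.13-fold and 27.9-fold and included Lefty1, Lefty2, Nanog, Prdm14, Tcl1 and Klf4. Mcf2, an exchange factor of small GTPases, measured 2.75 and 2.84 in DMSO and -4.29 and 0.72 at 24h, 23.9-fold lower (adjusted p = 0.014). Ccno, a cyclin of multiciliated cells, measured 1.82 and 1.61 in DMSO and -1.64 and -0.77 at 24h, 7.55-fold lower (adjusted p = 0.000382). Spp1, the matrix protein osteopontin, measured 3.15 and 3.23 in DMSO and -0.62 and 1.45 at 24h, 6.84-fold lower (adjusted p = 0.00287). The 2 24h arrays lay close together for Ccno and apart for Mcf2. Neurog3, a factor of endocrine progenitors, fell 7.92-fold, Jam2, a junction adhesion molecule, 6.62-fold, and Myo1f, a myosin, 6.13-fold. Klk1b5 fell 9.83-fold and Duxbl2 9.09-fold, and both belong to families of close copies that a probe may not separate. Gm11627, a predicted gene, fell 7.66-fold. Genes not well above background at 24h included Ucma, a cartilage matrix protein (at least 4.32-fold lower), Hes3, a repressor of the Hes family (at least 3.99-fold), Oasl2, an interferon-induced gene (at least 3.3-fold), Cabp4 (at least 3.23-fold) and Kiss1, a neuropeptide precursor (at least 2.99-fold). Another Kiss1 probe went the other way, at 1.05 ± 0.67 (adjusted p = 0.282), and was not called. The bounds were at least 2.58-fold for Zfp558 and at least 2.53-fold for Fancd2os, and hold only for the mean of the 2 DMSO arrays. Without DMSO replicate 1 the log2 differences were -0.76 for Zfp558 and -1.21 for Fancd2os. Without DMSO replicate 2 they were -3.26 and -4.37. Of these genes, the call was lost without the pairing for Neurog3, Kiss1, Zfp558 and Fancd2os, without 24h replicate 1 for Myo1f, Gm11627, Hes3, Zfp558 and Fancd2os, without 24h replicate 2 for Zfp558 and Fancd2os, without DMSO replicate 1 for Mcf2, Jam2, Myo1f, Gm11627, Hes3, Zfp558 and Fancd2os, and without DMSO replicate 2 for Myo1f.

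**Figure D4:**
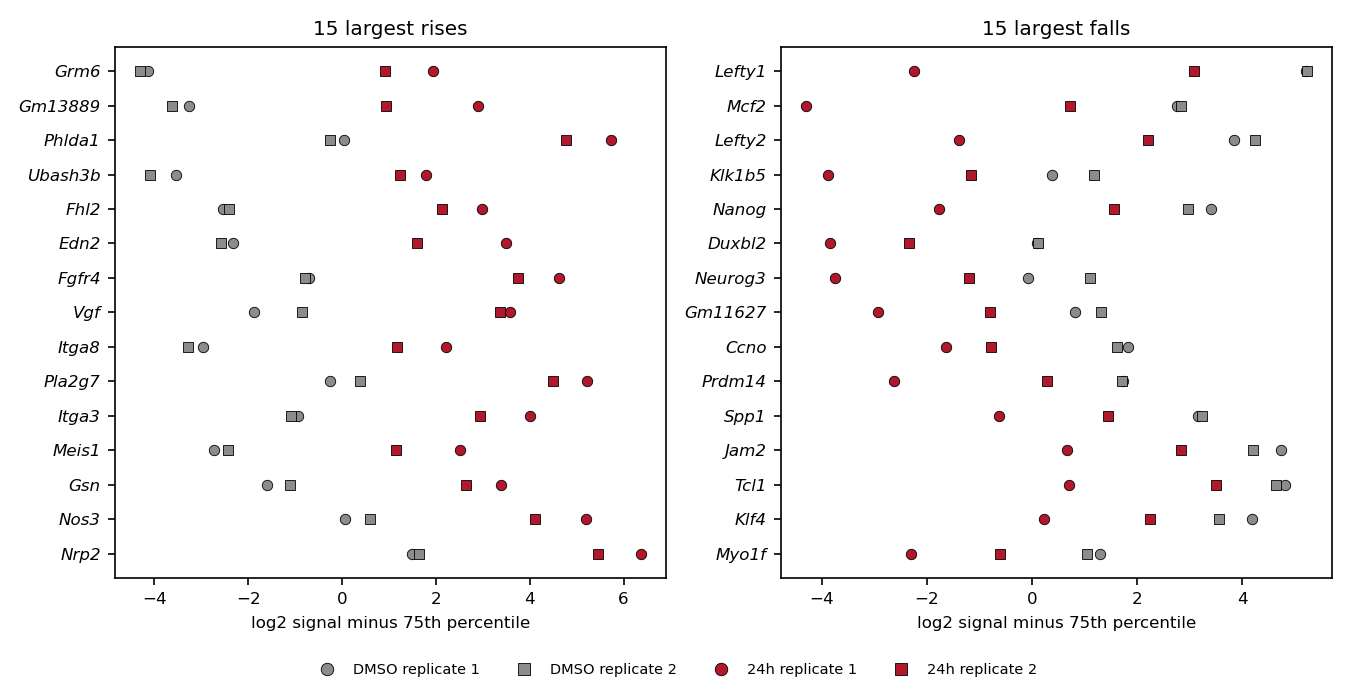
Signal (log2 minus the 75th percentile, x axis) on each of the 4 arrays for the 15 genes with the largest rises (left) and the 15 with the largest falls (right) among genes well above background on all 4; grey marks DMSO, red marks 24h, circles replicate 1 and squares replicate 2. The red points of the rising genes lie far from the grey ones, though for some, such as Gm13889 and Meis1, the red circle and square are apart. For Lefty1, Mcf2 and Nanog the red circle is much lower than the red square.

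In other signalling families single genes changed, beside 12.5% of all genes called higher and 13.4% called lower. Among EGF family genes, 3 of 9 genes tested were called higher and 0 lower, with a median difference of 0.13 (0.25 in replicate 1 and 0.13 in replicate 2, against -0.02 with normexp), and 2 and 0 were called without the pairing and at the fewest 2 and 0 with 1 array left out. Hbegf, a ligand of the EGF receptor, measured 1.55 and 1.32 in DMSO and 4.42 and 3.85 at 24h and rose 6.5-fold (adjusted p = 0.00165). Among BMP and Id genes, 5 of 17 genes tested were called higher and 6 lower (3 and 6 with normexp), with a median difference of -0.28 (-0.45 in replicate 1 and -0.24 in replicate 2, against 0.01 leaving out 24h replicate 2, -0.07 leaving out DMSO replicate 1 and -0.43 leaving out DMSO replicate 2), and 3 and 1 were called without the pairing and at the fewest 2 and 0 with 1 array left out. Id1, an inhibitor of basic helix-loop-helix factors, measured 2.96 and 3.31 in DMSO and 5.77 and 5.33 at 24h and rose 5.35-fold (adjusted p = 0.000978), while Id3 measured 2.60 and 2.37 in DMSO and 0.08 and 1.33 at 24h and fell 3.43-fold (adjusted p = 0.0161). Bmp4, a ligand, rose 2.13-fold. Among LIF receptor and STAT3 genes, 4 of 13 genes tested were called higher and 2 lower, with a median difference of 0.02 (0.04 in replicate 1 and 0.07 in replicate 2), and 2 and 1 were called without the pairing and at the fewest 2 and 0 with 1 array left out. Pim1, a kinase induced by STAT3, rose 2.09-fold, and Il6st, the shared receptor chain gp130, fell 1.51-fold. Among Wnt genes, 5 of 25 genes tested were called higher and 4 lower, with a median difference of 0.11 (0.26 in replicate 1 and -0.03 in replicate 2, against 0.26 leaving out 24h replicate 2, -0.03 leaving out DMSO replicate 1 and 0.26 without the pairing), and 2 and 4 were called without the pairing and at the fewest 1 and 2 with 1 array left out. Tcf7l1, the repressor of the pathway, measured 1.84 and 1.88 in DMSO and 0.03 and 0.61 at 24h and fell 2.91-fold (adjusted p = 0.00113), and the receptor Fzd2 fell 3.7-fold. For these the call was lost without the pairing for Bmp4, without 24h replicate 1 for Id3 and Il6st, without DMSO replicate 1 for Id3, Bmp4 and Il6st, and without DMSO replicate 2 for Id3.

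Besides Aldh1a3, the retinoic acid list held Crabp2, a retinoic acid carrier, at 2.40 and 2.70 in DMSO and 1.04 and 1.54 at 24h (2.39-fold lower); 5 of 16 genes tested were called higher and 3 lower, with a median difference of -0.01 (0.12 in replicate 1 and -0.04 in replicate 2, against 0.14 leaving out 24h replicate 2), and 4 and 1 were called without the pairing and at the fewest 3 and 1 with 1 array left out. Among prostaglandin genes, 4 of 13 genes tested were called higher and 1 lower, with a median difference of -0.02 (-0.02 in replicate 1 and 0.06 in replicate 2, against 0.09 with quantile normalization), and 2 and 0 were called without the pairing and at the fewest 2 and 0 with 1 array left out. Ptgs2, the inducible cyclooxygenase, measured -6.68 and -6.24 in DMSO and -1.72 and -1.51 at 24h and was at least 9.96-fold higher from below background, and Ptger2, a prostaglandin receptor, rose 4.52-fold. Among Hox genes, of which 12 of 28 were tested, 2 of 12 genes tested were called higher and 2 lower, with a median difference of -0.47 (-0.24 in replicate 1 and -0.32 in replicate 2, against -0.22 with normexp, -0.15 leaving out 24h replicate 2 and -0.31 leaving out 24h replicate 1), and 2 and 1 were called without the pairing and at the fewest 1 and 0 with 1 array left out. Among imprinted genes, 4 of 18 genes tested were called higher and 3 lower, with a median difference of 0.02 (0.08 in replicate 1 and 0.02 in replicate 2), and 3 and 2 were called without the pairing and at the fewest 1 and 2 with 1 array left out. Peg3, a zinc finger gene, fell 4.04-fold and Plagl1 rose 2.57-fold. Of the other Plagl1 probes, one differed by 1.26 ± 0.20 (adjusted p = 0.00334), and the others, at 0.15 ± 0.20 (adjusted p = 0.64) and 0.05 ± 0.16 (adjusted p = 0.87), were not called. For the probes kept for these genes no call was lost without the pairing or with 1 array left out.

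Cdkn2b and Cdkn2a, inhibitors of the D cyclin kinases, rose, and cyclin D1 fell. In their list, 2 of 15 genes tested were called higher and 3 lower, with a median difference of 0.05 (0.16 in replicate 1 and -0.07 in replicate 2, against -0.07 leaving out DMSO replicate 1 and 0.20 leaving out DMSO replicate 2), and 2 and 2 were called without the pairing and at the fewest 1 and 0 with 1 array left out. Cdkn2b, which encodes p15, measured -2.45 and -1.48 in DMSO and 0.48 and 0.13 at 24h, 4.83-fold higher (adjusted p = 0.00108). Cdkn2a, which encodes p16 and Arf, measured 1.02 and 1.21 in DMSO and 3.75 and 2.53 at 24h, 4.06-fold higher (adjusted p = 0.00682). Ccnd1, cyclin D1, measured 3.93 and 3.86 in DMSO and 2.25 and 2.87 at 24h, 2.52-fold lower (adjusted p = 0.0149). Both inhibitors rose in both replicates and the cyclin fell in both, and the replicates had the same sign in 4066 of the 4067 called genes. Among replication and mitosis genes, 0 of 28 genes tested were called higher and 5 lower (1 and 2 with median scaling and 1 and 2 with quantile normalization), with a median difference of -0.19 (-0.21 in replicate 1 and -0.19 in replicate 2), and 0 and 0 were called without the pairing and at the fewest 0 and 0 with 1 array left out. Among Myc family genes, 2 of 9 genes tested were called higher and 4 lower, with a median difference of -0.44 (-0.55 in replicate 1 and -0.31 in replicate 2, against -0.26 leaving out 24h replicate 1), and 0 and 1 were called without the pairing and at the fewest 1 and 0 with 1 array left out. Mycn, the stem cell Myc gene, fell 1.61-fold. Among DNA methylation genes, 1 of 9 genes tested was called higher and 2 lower, with a median difference of -0.26 (-0.35 in replicate 1 and -0.18 in replicate 2, against -0.14 leaving out 24h replicate 1), and 1 and 1 were called without the pairing and at the fewest 0 and 1 with 1 array left out. Tet1, which oxidises methylcytosine, measured 4.74 and 4.62 in DMSO and 3.97 and 3.77 at 24h and fell 1.75-fold (adjusted p = 0.00108). For these the call was lost without 24h replicate 1 for Ccnd1 and Mycn, and without DMSO replicate 1 for Cdkn2a, Ccnd1 and Mycn.

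In p53 targets and apoptosis genes, 6 of 19 genes tested were called higher and 3 lower (6 and 1 with median scaling), with a median difference of 0.24 (0.21 in replicate 1 and 0.13 in replicate 2, against 0.37 with quantile normalization), and 6 and 0 were called without the pairing and at the fewest 4 and 0 with 1 array left out. Bcl2l11, the death promoter Bim, measured -1.67 and -1.53 in DMSO and 0.68 and -0.01 at 24h, 3.81-fold higher, but another probe of the gene differed by 0.40 ± 0.35 (adjusted p = 0.438) and was not called. Pmaip1, another death promoter, rose 3.28-fold, Gadd45a, a growth arrest gene, 3.93-fold, and Bcl2l1, a survival gene, 1.92-fold, where another probe was not called, at 0.72 ± 0.54 (adjusted p = 0.357). Trp53 (-0.38), Bax (-0.43) and Sesn1 (-0.66) were called lower, and these calls were lost without the pairing. Cdkn1a (0.71), Ccng1 (0.44), Zmat3 (0.17), Phlda3 (0.07) and Bbc3 (-0.06) were not called (log2 differences). In the unfolded protein and ATF4 list, 7 of 22 genes tested were called higher and 3 lower (7 and 1 with median scaling), with a median difference of 0.32 (0.37 in replicate 1 and 0.25 in replicate 2, against 0.19 leaving out DMSO replicate 1), and 2 and 0 were called without the pairing and at the fewest 3 and 0 with 1 array left out. Ddit3, the stress factor CHOP, measured 0.25 and 0.46 in DMSO and 2.55 and 2.46 at 24h and rose 4.46-fold (adjusted p = 0.00902). Interferon genes leaned lower: 1 of 17 genes tested was called higher and 7 lower (3 and 7 with normexp), with a median difference of -0.34 (-0.56 in replicate 1 and -0.23 in replicate 2, against -0.57 leaving out 24h replicate 2), and 1 and 5 were called without the pairing and at the fewest 0 and 3 with 1 array left out. Irf1, an interferon-regulated factor, measured 3.33 and 3.43 in DMSO and 0.37 and 1.90 at 24h, 4.74-fold lower (adjusted p = 0.00207), and Ifitm1, a membrane protein, 6.24 and 6.11 in DMSO and 4.49 and 5.03 at 24h, 2.66-fold lower. Of the genes given with a fold in this paragraph, the call was lost without 24h replicate 1 for Bcl2l1, and without DMSO replicate 1 for Bcl2l1 and Ddit3.

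In the metabolic lists medians lay between -0.26 and 0.24. In cholesterol synthesis, 3 of 22 genes tested were called higher and 4 lower, with a median difference of 0.07 (0.07 in replicate 1 and 0.02 in replicate 2), and 1 and 3 were called without the pairing and at the fewest 0 and 0 with 1 array left out. In glycolysis and hypoxia, 3 of 24 genes tested were called higher and 3 lower (3 and 1 with quantile normalization and 2 and 6 with normexp), with a median difference of -0.26 (-0.28 in replicate 1 and -0.13 in replicate 2, against -0.08 with quantile normalization), and 1 and 0 were called without the pairing and at the fewest 2 and 0 with 1 array left out. In ribosome biogenesis, 0 of 22 genes tested were called higher and 2 lower (0 and 0 with median scaling and 2 and 0 with quantile normalization), with a median difference of 0.0 (-0.08 in replicate 1 and 0.0 in replicate 2), and 0 and 0 were called without the pairing and at the fewest 0 and 0 with 1 array left out. In the respiratory chain, 0 of 22 genes tested were called higher and 7 lower (1 and 3 with quantile normalization), with a median difference of -0.20 (-0.20 in replicate 1 and -0.19 in replicate 2, against -0.02 with quantile normalization), and 0 and 3 were called without the pairing and at the fewest 0 and 1 with 1 array left out. In amino acid transporters, 5 of 16 genes tested were called higher and 2 lower, with a median difference of 0.24 (0.26 in replicate 1 and 0.29 in replicate 2, against 0.11 with normexp), and 1 and 2 were called without the pairing and at the fewest 0 and 1 with 1 array left out. Car9, a hypoxia-induced carbonic anhydrase, rose 3.3-fold, and Vegfa, a vessel growth factor, 2.74-fold. Ndufb5, a complex I subunit, fell 1.66-fold. For these the call was lost without the pairing for Vegfa.

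Markers of other cells and reference genes were read beside these lists. In the fibroblast and feeder list, 2 of 11 genes tested were called higher and 1 lower, with a median difference of 0.20 (0.23 in replicate 1 and 0.15 in replicate 2, against -0.10 with normexp, 0.31 leaving out DMSO replicate 1 and -0.10 leaving out 24h replicate 1), and 2 and 0 were called without the pairing and at the fewest 2 and 0 with 1 array left out. Its defining collagens were not called: Col1a1 measured -4.39 and -4.35 in DMSO and -4.37 and -4.25 at 24h, Col1a2 -0.82 and -2.48 in DMSO and -1.83 and -2.33 at 24h and Col3a1 -4.17 and -4.29 in DMSO and -3.23 and -4.25 at 24h. Dcn, a further fibroblast marker, was the member called lower, by -1.76 ± 0.48 (adjusted p = 0.0262). Its probe was not well above background on every one of the 4 arrays, and its call was lost without the pairing. Thy1, a surface protein of fibroblasts and other cells, measured 1.90 and 2.40 in DMSO and 3.79 and 3.72 at 24h and rose 3.05-fold, and Loxl1, a matrix crosslinking enzyme, rose 2.3-fold; for them no call was lost without the pairing or with 1 array left out. In the list of 2-cell-like markers, 0 of 6 genes tested were called higher and 2 lower, with a median difference of -0.24 (-0.20 in replicate 1 and -0.26 in replicate 2, against -0.12 leaving out 24h replicate 2), and 0 and 0 were called without the pairing and at the fewest 0 and 0 with 1 array left out. In the housekeeping list, 2 of 17 genes tested were called higher and 1 lower, with a median difference of -0.10 (-0.19 in replicate 1 and -0.06 in replicate 2, against 0.06 with quantile normalization), and 2 and 0 were called without the pairing and at the fewest 1 and 0 with 1 array left out. Hprt, a salvage enzyme of that list, measured -3.31 and -3.22 in DMSO and -1.78 and -2.37 at 24h and rose 2.27-fold (adjusted p = 0.00314). Its signal was low in both groups, and whether it serves as a reference in this line was not tested. The part of other cells in the changes above was not tested.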

How the data were processed

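Total RNA of 16 samples was labelled and hybridised to 1-colour Agilent arrays. The deposited values are green channel intensity per spot, background-subtracted by Agilent Feature Extraction 11.0.1.1 per the file headers (the labels name the dye Cy5); a deposited value table, with linear intensity whose column medians were 27.3 to 44.7, served to identify the arrays (spots matched within 0.6%; the next best column matched 1.17% to 4.99%) and as an alternative. How the authors scaled that table is not given in the sources used here; on the log2 scale it gave 4067 calls.

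From the deposited intensity, log2 values minus each array's 75th percentile were computed, leaving out control and outlier spots. Of 55681 probes, 27656 named 1 gene, 28025 none and 0 several. For a gene with several probes 1 was kept, and of 1106 called genes with another probe, 10 had one called in the opposite direction. A gene was tested where both arrays of any of the 8 groups read well above background (15660 of 20972) in 1 limma 3.58.1 fit (R 4.3.3) over all 16 arrays, with group and replicate number as terms, 7 residual degrees of freedom and Benjamini-Hochberg adjustment, threshold 0.05. The pairing comes from replicate numbers in the column headings: deviations of same-numbered arrays correlated at 0.33 to 0.66 over the 28 pairs of groups (0.35 for 24h and DMSO). On simulated data of 15629 genes, of which 200 were changed, 67% of changes of 1 log2 unit and 93% of 2 were recovered, and 11 of 171 calls were false. The simulation gave each gene the same spread in all groups, unlike the arrays, so these figures may be too favourable. gMeanSignal was not used here, so the normexp alternative (offset 50) took the median signal. Genes named are a core set, the 15 largest rises and falls among genes well above background on all 4 arrays with the same sign in both replicates, the 8 largest bounds each way, and called list members; other members are named by role. Some genes that this rule names are not reported here. Members and lists were chosen with earlier results of these data known. The number of arrays, 2 a group, limits the precision, with a spread estimated over all 16.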

Additional observations from a re-analysis of the deposited data

How the results depend on the processing

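Without the replicate block, 1778 genes were called (1027 higher, 751 lower), with 4 general pluripotency genes lower, 7 epithelial genes higher and 3 FGF genes lower. A fit on the 4 arrays alone, with the replicate block, called 0 genes in either direction and 0 in every list led with, with 3916 genes at an unadjusted p under 0.05; it had 1 residual degree of freedom. A minimum of 2-fold left 1495 calls (917 higher, 578 lower), with 2 general pluripotency genes lower, 3 primitive endoderm genes higher and 3 Nodal genes lower. Over the fits that left out 1 array, calls ranged from 1454 to 3954 (884 to 1981 higher, 570 to 1973 lower). Lower calls ranged from 4 to 16 in the naive list, 2 to 7 in the general, 1 to 4 in the formative, 1 to 6 in the FGF and 1 to 6 in the Nodal list, and higher calls from 3 to 9 in primitive endoderm and 7 to 12 in epithelial genes. List medians ranged from 0.71 to 1.05 (ERK feedback), -0.27 to -0.04 (general) and -0.78 to -0.17 (formative). The formative median was -0.37 with normexp, -0.44 with quantile normalization, -0.19 with genes well above background on all 4 arrays and -0.58 with the mean over probes, and the FGF median was -0.37, -0.56 and -0.55 with normexp, that filter and that mean. Median scaling, no filter on dim probes and the value table kept the total and the calls of these lists in the direction led with within 1.5 times. The normexp alternative used the median in place of the mean signal.

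Samples taken from the file attachment, without the replicate block, gave 252 calls (237 higher, 15 lower) and 0 in the direction led with in each list: lists had medians of -0.24 (ERK feedback), -0.03 (immediate early), -0.49 (naive), -0.41 (general), -0.57 (formative), 0.14 (epithelial) and -0.27 (FGF). Genes whose sign turned were Arc (-0.81), Bmp4 (-1.18), Braf (-0.23), Csrnp1 (-0.02), Dusp1 (-0.16), Dusp4 (-0.76), Dusp6 (-0.39), Etv4 (-0.24), Fgfr2 (0.08), Gbx2 (-0.66), Ier3 (-0.04), Jun (-0.96), Junb (-0.17), Kiss1 (0.17), Klf5 (-0.49), Myc (-0.86), Neurog3 (1.15), Rasa1 (0.06), Snai1 (0.47), Sox4 (-0.19), Spred1 (-0.52), Spry2 (-0.37), Spry4 (-0.62), Tcf15 (-0.57), Tfcp2l1 (0.27), Vegfa (-0.21) and Zfp36l2 (-0.26). The cause was not tested for any of these changes beyond the smaller number of arrays in the fits that left some out.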
